A study of Mus musculus with 4 samples.

Results

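The genes described here are those that build, load and switch on the major histocompatibility complex (MHC) molecules of the mouse ovary. They are listed by name with no threshold on a value, and earlier results of these data were known when the list was made. B2m, H2-K1, H2-D1, Tap1 and Nlrc5 belong to the class I pathway, and H2-Aa, H2-Ab1, H2-Eb1, Cd74 and Ciita to the class II pathway. These 10 genes were among the 32285 genes of each matrix, and UMIs (unique molecular identifiers, each marking 1 captured RNA molecule) of all 10 were found in all 4 libraries. Ovaries of 8-week-old females from 1 litter gave 2 libraries labelled Fosl2F/F, from mice with floxed Fosl2 alleles, and 2 labelled Fosl2cKO, from mice with the same floxed alleles and Cre under the Cyp19a1 promoter. All mice thus carried the floxed alleles, and Cre was directed to granulosa cells (GCs), in which the Cyp19a1 promoter is active. Each library was taken as 1 replicate, and p-values therefore measure only the spread between these libraries.

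The targeted gene separated the labels only narrowly in granulosa-like cells and was not called. Fosl2 in granulosa-like cells had 167 and 164 CPM (the UMIs of a gene per 1000000 UMIs of the class, here scaled between libraries) in the Fosl2F/F libraries. The libraries labelled Fosl2cKO had 163 and 115 CPM, a log2 fold change of -0.25 with a standard error (SE) of 0.20. In edgeR's quasi-likelihood test the p adjusted by Benjamini-Hochberg was 1.0. The groups did not overlap, but the first library labelled Fosl2cKO lay next to those labelled Fosl2F/F. Of the granulosa subclasses described further on, mitotic-antral-like cells had 104, 119, 83.6 and 71.8 CPM (log2 fold change -0.52, SE 0.18, edgeR's adjusted p = 0.44) and mitotic-like cells 125, 152, 119 and 91.4 CPM, also without overlap, while the groups overlapped in the other 3. The matrices give 1 count per gene, and whether the part of Fosl2 read by a 3′ kit lies between the LoxP sites around exons 2 to 4 was not stated. Every direction given below is for libraries labelled Fosl2cKO.

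MHC class I molecules stand on nearly all nucleated cells and show peptides from inside the cell to CD8 T cells. The heavy chains H2-K1 and H2-D1 pair with the light chain B2m, Tap1 is a subunit of the transporter that brings peptides into the endoplasmic reticulum, and Nlrc5 is the coactivator of class I genes. Class II molecules are borne mainly by dendritic cells, macrophages and B cells, which show peptides of engulfed proteins to CD4 T cells. H2-Aa and H2-Ab1 encode the chains of I-A and H2-Eb1 the beta chain of I-E, Cd74 is the invariant chain that guards the peptide groove until loading, and Ciita is the coactivator on which class II genes depend. Interferon-gamma induces both sets of genes, and a promoter complex of RFX, CREB and NF-Y proteins is common to them.

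Of the members, 6 lie in the MHC on chromosome 17. On GRCm38, H2-K1 (ENSMUSG00000061232) spans chr17:33996017-34000347, Tap1 chr17:34187553-34197225, H2-Ab1 chr17:34257689-34269419, H2-Aa chr17:34282744-34287823, H2-Eb1 chr17:34305867-34316674 and H2-D1 chr17:35262730-35267499. B2m lies at chr2:122147686-122153083, Nlrc5 at chr8:94434356-94527272 and Ciita at chr16:10480059-10528418, and Cd74 also lies outside the MHC. The 3′ ends of the class I heavy chains resemble those of other genes. Of the 50-base stretches in the last 500 bases of their transcripts, 11.8% for H2-K1 and 18.8% for H2-D1 also occurred in transcripts of other genes, H2-Q and H2-T genes among them, against 1.41% for Tap1 and 0 for the other members. Counts of H2-K1 and H2-D1 are therefore uncertain where reads could not be told apart. Genes on the opposite strand overlap B2m (Patl2), Tap1 (Psmb9), Nlrc5, H2-Eb1 (Gm20513) and Ciita (Dexi), and whether the counting used strand was not stated in the sources used here.

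The promoter table of RefSeq (GRCm38.p6, 250 bases before to 50 bases after the start) held 6 of the 10 members, not all of which are described here. Promoters of Nlrc5, H2-Ab1, Cd74 and Ciita were not in it. In H2-K1, H2-D1 and H2-Aa, the letters TGACG, part of the site where CREB proteins bind, were followed on the strand of the gene by ATTGG, the CCAAT box of NF-Y read from the other strand. The sequences are shown since members of both classes share this arrangement, with the motifs in capitals and read 5′ to 3′ on the strand of the gene, all upstream of the gene except for H2-D1, where an annotated first exon of a longer transcript covers the pair.
H2-K1, chr17:34000348-34000408, minus strand: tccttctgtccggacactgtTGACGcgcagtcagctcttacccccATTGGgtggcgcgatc
H2-D1, chr17:35262993-35263022, plus strand: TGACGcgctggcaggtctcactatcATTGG
H2-Aa, chr17:34287856-34287917, minus strand: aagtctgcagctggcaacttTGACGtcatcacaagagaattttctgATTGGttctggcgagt
The step from the start of TGACG to the start of ATTGG was 25 bases in H2-K1 and H2-D1 and 26 in H2-Aa. A pair at a step of 24 to 27 bases, a range set after the sequences had been seen, occurred in 78 of 32851 promoters (0.237%), while TGACG alone occurred in 20.8% and ATTGG alone in 37.4%, each searched on both strands. Tap1 and H2-Eb1 held no such pair in this window, and among the other genes of the pathway in the table H2-M3, a class I gene, held one at a step of 25. A match of letters is a description and not a binding site.

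After filtering, 41538 cells were kept, with 8150 and 19575 from the Fosl2F/F libraries and 6760 and 7053 from those labelled Fosl2cKO. The median cell held 11177, 3655, 12297 and 12465 UMIs in the same order, with the second Fosl2F/F library lowest in depth and largest in cell number. The libraries shared 15 to 81 barcodes in pairs, at most 0.763% of a library. Cells were clustered without the antigen presentation genes, and 16 classes were named from marker lists, each with the suffix "-like". In each class 5 to 11 of the listed markers were highest in that class, and the summed markers exceeded those of the next class in all 16, most narrowly for theca-like cells (18685 against 13445 CPM). Since the same lists gave the names, these values describe the classes and do not test their names. Granulosa-like (15785 cells), stromal-like (11215), theca-like (5179), pericyte or smooth muscle-like (2215) and luteal-like cells (2055) were the largest classes. Immune clusters made up 6.21% and 5.27% of cells in Fosl2F/F libraries and 10.9% and 7.42% of those labelled Fosl2cKO. Levels are means ± SD over the 4 libraries in CPM, as a description with no test, since classes are parts of the same libraries. In a sum over a class, fewer cells that express a gene and less of its RNA per cell cannot be told apart.

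The class I chains B2m, H2-K1 and H2-D1 were read in all classes, at levels that fell from immune and endothelial to follicular cells. Nlrc5 had 1 UMI in all in neutrophil-like and 1 in oocyte-like cells. The orders of classes given here are among the named classes, and an unnamed immune cluster reached 2183 ± 366 CPM of B2m and 4495 ± 939 CPM of H2-K1, above the means of all named classes. Of the named classes, B2m, the common light chain, was highest in monocyte-like (1982 ± 402), macrophage-like (1865 ± 262) and T-like cells (1611 ± 211). The monocyte-like mean includes 2512 CPM from 6 cells of the second library labelled Fosl2cKO, against 2009, 1549 and 1858 CPM in the others. Endothelial-like cells followed with 1297 ± 376, and NK-like, dendritic-like, neutrophil-like, lymphatic endothelial-like and B lymphocyte-like cells held means of 801 to 1221 CPM. Further down came epithelial-like (353 ± 264), stromal-like (299 ± 97.2), pericyte or smooth muscle-like (289 ± 64.9) and theca-like cells (182 ± 36.8). Granulosa-like (115 ± 20.9), luteal-like (109 ± 33.1) and oocyte-like cells (75.4 ± 35.8) stood last. In this order the ranges of neighbouring classes overlapped at each step but one, from theca-like cells, with 151 CPM at the lowest, to granulosa-like cells, with 146 CPM at the highest.

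H2-K1 ran in another order. T-like cells had 3035 and 2527 CPM in Fosl2F/F libraries and 3508 and 2836 CPM in those labelled Fosl2cKO. NK-like cells had 2520, 2619, 2979 and 2669 CPM in the same order of libraries. Both lymphocyte classes lay above endothelial-like cells, at 2035, 1195, 2483 and 1243 CPM, in each of the 4 libraries. Granulosa-like cells had 203, 152, 152 and 108 CPM, the lowest mean of the named classes (154 ± 39.1), next to stromal-like (159 ± 84.5) and pericyte or smooth muscle-like cells (183 ± 86.6), whose ranges overlapped with theirs. Theca-like (275 ± 73.5) and luteal-like cells (257 ± 126), which make steroids, had higher means. These classes pool unlike clusters. The theca-like cluster led by Abcb1b had 333 ± 55.8 CPM. The theca-like cluster led by Cyp17a1 had 180 ± 55 CPM and overlapped in range with granulosa-like cells. Clusters of stromal-like cells ran from 73.6 ± 25 to 488 ± 309 CPM. Neighbouring classes overlapped throughout the order of H2-K1.

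**Figure D1:**
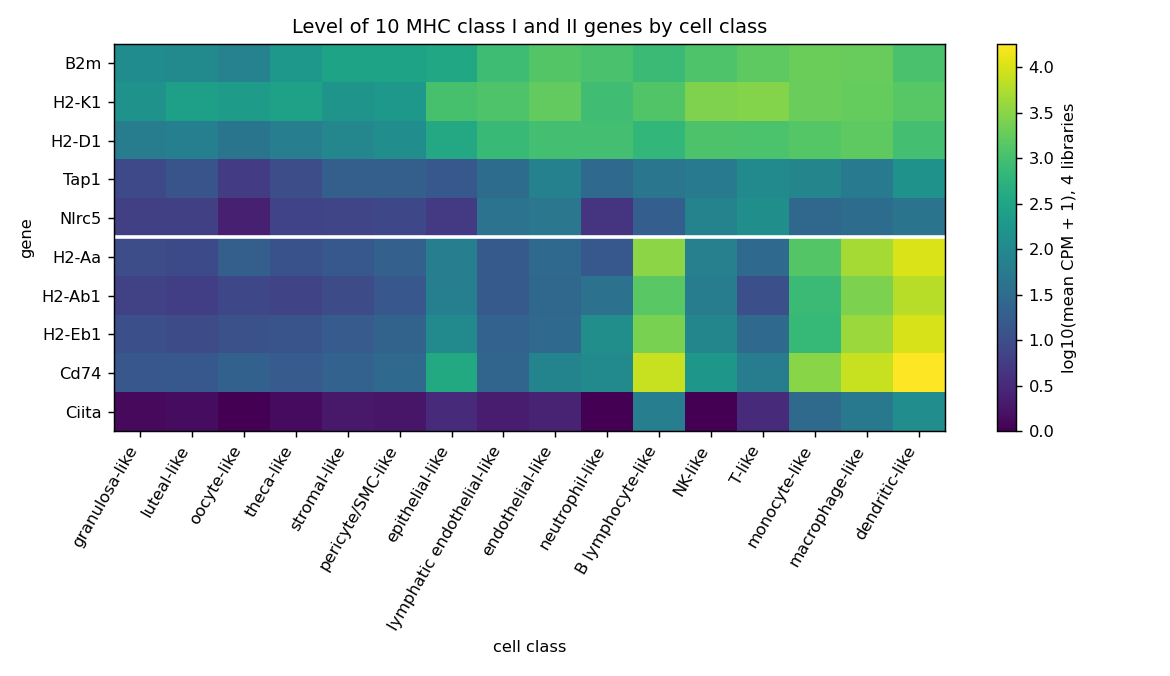
Mean level of the 10 genes (rows, as log10 of mean CPM + 1 over the 4 libraries) in the named cell classes (columns). The class I chains B2m, H2-K1 and H2-D1 are read in every class, with B2m from 75.4 CPM in oocyte-like to 1982 CPM in monocyte-like cells. Class II genes are high in dendritic-like, macrophage-like, B lymphocyte-like and monocyte-like cells.

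H2-D1, the other classical heavy chain, was highest of the named classes in macrophage-like cells (1606 ± 453) and lowest in granulosa-like (62.5 ± 18) and oocyte-like cells (44 ± 54.9). The heavy chains did not keep 1 ratio across classes. H2-K1 over H2-D1 was 5.12, 4.46, 3.47 and 4.9 in theca-like cells (4.49 ± 0.731) and 4.07 ± 1.42 in luteal-like cells. It was 1.15, 1.51, 0.81 and 1.28 in macrophage-like cells (1.19 ± 0.292), with no overlap with theca-like cells, and 1.54 ± 0.0508 in pericyte or smooth muscle-like cells. T-like (2.63 ± 0.126), granulosa-like (2.48 ± 0.216) and NK-like cells (2.28 ± 0.0789) lay between. The shared 3′ ends named above touch both genes in this ratio.

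Tap1 and Nlrc5 were counted less often in all classes. Tap1 was highest in dendritic-like cells, at 124, 129, 193 and 147 CPM, followed by T-like cells (103 ± 7.62), whose range lay below, and monocyte-like cells (85.7 ± 38), which overlapped with T-like cells. Within the dendritic-like cells, the cluster led by Xcr1 and Clec9a, known for presenting engulfed antigen on class I, had 286, 203, 264 and 192 CPM of Tap1. The cluster led by Cd209a and Ccl17 had 100, 103, 135 and 114 CPM, below the other cluster in every library, although the smaller cluster held only 93 cells. B2m, H2-K1 and H2-D1 went the other way in these clusters, with 851 ± 62.4, 1057 ± 131 and 702 ± 102 CPM in the Xcr1 cluster against 1224 ± 168, 1664 ± 422 and 1077 ± 218 CPM. Among the named classes Nlrc5 was highest in T-like cells, at 98, 107, 188 and 131 CPM, and then in NK-like (79.8 ± 35.8), endothelial-like (47.9 ± 20.3) and dendritic-like cells (43.2 ± 11.4). Granulosa-like cells held 7.6 ± 2.09 CPM of Tap1 and 5.33 ± 0.844 CPM of Nlrc5.

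Class I levels also varied inside the follicle. Granulosa-like cells clustered by themselves gave 5 named subclasses, and cumulus-like cells, of the kind that surround the oocyte, had the lowest level of all 3 class I chains among them. H2-K1 was at 74.9 and 80.6 CPM in cumulus-like cells of the Fosl2F/F libraries and at 97.4 and 63.7 CPM in those labelled Fosl2cKO. Mural-like cells, which line the follicle wall, had 274, 214, 252 and 149 CPM, above cumulus-like cells in every library. B2m was at 56.7 ± 9.72 CPM in cumulus-like, 137 ± 21.3 in mural-like and 147 ± 37.4 in atretic-like cells, and H2-D1 at 33.8 ± 6.47, 81.1 ± 20.9 and 92.4 ± 31.2 CPM. The ranges of mural-like, atretic-like, mitotic-antral-like and mitotic-like cells overlapped for all 3 chains. Mitotic-antral-like cells were named from their own marker list. They were led by Ndufa4l2, Cox4i2, Slc16a3 and Ldha, with no marker of the mitotic list among the leading genes, so the name does not mark dividing cells. Cells of the cluster led by Amh and Cited1, which stayed unnamed, were nearly as low as cumulus-like cells, at 83 ± 6.23 CPM of H2-K1 and 81.2 ± 11.8 CPM of B2m.

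Class II transcripts were concentrated in few cells. Immune clusters held 90.9% ± 4.02 of all Cd74 UMIs (SD, n = 4 libraries), 92.2% ± 3.41 of H2-Aa, 90.4% ± 3.83 of H2-Ab1 and 90.4% ± 3.56 of H2-Eb1 UMIs. Dendritic-like cells alone, 415 of the cells kept, held 40.9% ± 9.19 of Cd74 UMIs, and the 964 macrophage-like cells held 39.8% ± 15.4. For class I chains the same immune clusters held 21.7% ± 4 of B2m, 21.9% ± 5.31 of H2-K1 and 30.9% ± 6.71 of H2-D1 UMIs. Granulosa-like cells held 26.7% ± 15.2 of H2-K1 UMIs and 2.27% ± 0.731 of Cd74 UMIs.

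Cd74 stood at 22855 and 16950 CPM in dendritic-like cells of the Fosl2F/F libraries and at 15175 and 17531 CPM in those labelled Fosl2cKO. The order then ran to macrophage-like (7943 ± 2357), B lymphocyte-like (7925 ± 399) and monocyte-like cells (3228 ± 443). Dendritic-like cells lay above the ranges of all other named classes, macrophage-like and B lymphocyte-like cells overlapped, and monocyte-like cells lay below both. H2-Aa, H2-Ab1 and H2-Eb1 gave the same first 4 classes, with H2-Aa at 10457 ± 2333 CPM in dendritic-like, 4759 ± 1024 in macrophage-like, 3348 ± 539 in B lymphocyte-like and 1300 ± 389 in monocyte-like cells. Inside the macrophage-like class, the cluster led by Atp6v0d2 and Gpnmb had 6572 ± 2352 CPM of Cd74, against 9660 ± 2615 and 9235 ± 2726 CPM in the others, with overlap between them. Among unnamed immune clusters, the one with Siglech among its leading genes (23 cells) had 3403 ± 1126 CPM and the one led by Arg1 and Spp1 (101 cells) 8049 ± 3572 CPM.

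**Figure D2:**
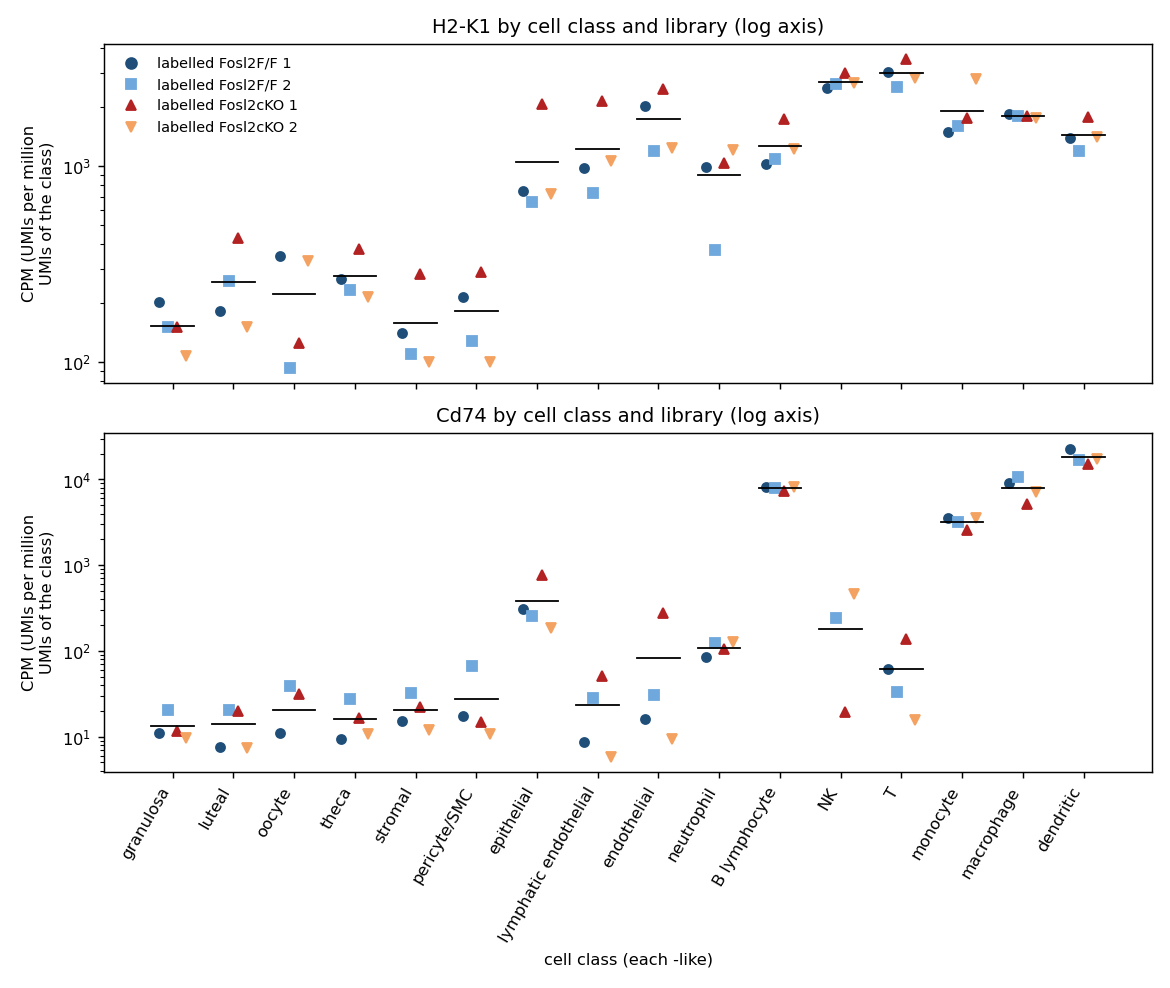
H2-K1 (top) and Cd74 (bottom) by cell class and library, in CPM on log axes, with 1 symbol per library and a line at the mean of the 4 (values of 0 are not drawn, as for Cd74 in NK-like cells of the first Fosl2F/F library). Among the named classes H2-K1 reaches 3508 CPM, in T-like cells. In epithelial-like cells the first library labelled Fosl2cKO stands at 2083 CPM against 658 to 747 CPM in the others.

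Ciita followed the class II genes at low counts. Dendritic-like cells had 153, 70.4, 85.4 and 171 CPM, from 36 to 118 UMIs, and macrophage-like cells 63.9, 52.4, 35.5 and 54.7 CPM. B lymphocyte-like cells had 66.2 ± 59.3 CPM, on 23 UMIs in all. No UMI of Ciita was found in NK-like, neutrophil-like or oocyte-like cells, and granulosa-like cells had 0.259 ± 0.106 CPM, on 50 UMIs.

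Granulosa-like cells served as the class that should lack class II genes, and how much of their class II signal was free RNA was not tested. After each cell was thinned to 2000 UMIs, 2.49% ± 0.983 of granulosa-like cells held a Cd74 UMI (13.5% ± 3.51 before thinning) and 1.87% ± 0.748 an H2-Aa UMI. Thinning left out 4.23% to 20.3% of the cells of a library, and the median depth before it ran from 4581 to 19209 UMIs in granulosa-like cells. Dendritic-like (99.3% ± 0.837), B lymphocyte-like (100% ± 0) and macrophage-like cells (90.9% ± 3.94) nearly all held a Cd74 UMI at that depth, the B lymphocyte-like value resting on 35, 21 and 36 cells of 3 libraries, since the second Fosl2F/F library had none that deep, with median depths before thinning of 2444 to 9589, 1132 to 2607 and 2414 to 9980 UMIs. T-like cells, at 5.82% ± 4.08, overlapped with granulosa-like cells in range, on 67, 10, 144 and 50 cells. Cells with a B2m UMI made up 19.4% ± 2.4 of granulosa-like, 89.9% ± 7.24 of endothelial-like and 94.8% ± 5.16 of T-like cells, and no class that should lack B2m was at hand.

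Epithelial-like cells, which carry keratins and cover the ovary, were the named class outside the immune clusters with the highest Cd74. They had 311 and 253 CPM in Fosl2F/F libraries and 766 and 185 CPM in those labelled Fosl2cKO, from 294 to 2681 UMIs. The share of epithelial-like cells with a Cd74 UMI was 36.5% ± 18.2 after thinning (22.3% to 63% over the libraries), above the 1.78% to 3.93% of granulosa-like cells in range. H2-Aa was at 53.6, 37.5, 132 and 41.5 CPM in these cells, H2-Ab1 at 63, 32.4, 139 and 39.6 and H2-Eb1 at 95.8, 62.3, 218 and 39.6 CPM. In Ciita, epithelial-like cells had 0 UMIs in the first Fosl2F/F library and 6, 14 and 5 UMIs in the others.

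The ratio of Cd74 to H2-Aa was higher in epithelial-like cells than in the immune classes listed here, and its ratios to H2-Ab1 and H2-Eb1 overlapped with some of them. Cd74 over H2-Aa was 5.81 and 6.75 in epithelial-like cells of the Fosl2F/F libraries and 5.8 and 4.45 in those labelled Fosl2cKO. It was 1.62, 2.03, 1.57 and 1.41 in macrophage-like cells and 1.72, 2.04, 1.72 and 1.54 in dendritic-like cells. Granulosa-like (1.46 ± 0.165), stromal-like (1.47 ± 0.252) and theca-like cells (1.53 ± 0.373) had ratios near those of these immune classes, while B lymphocyte-like (2.42 ± 0.452) and monocyte-like cells (2.58 ± 0.523) were higher but below 4.45 in each library. Cd74 over H2-Ab1 was 4.94, 7.83, 5.53 and 4.67 in epithelial-like and 4.86, 5.3, 6.44 and 5.11 in B lymphocyte-like cells, which overlap. Cd74 over H2-Eb1 was 3.25, 4.07, 3.51 and 4.67 in epithelial-like cells, overlapping with monocyte-like cells (3.69, 9.1, 3.34 and 4.95) and B lymphocyte-like cells (2.63, 4.82, 3.04 and 2.71). Cells with at least 10 Cd74 UMIs numbered 15 of 102 and 20 of 321 epithelial-like cells in the first and second Fosl2F/F library and 89 of 166 and 7 of 100 in those labelled Fosl2cKO. In granulosa-like cells 2 to 4 cells per library reached 10 UMIs, and these held 5.17 to 23.6% of the Cd74 UMIs of the class.

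**Figure D3:**
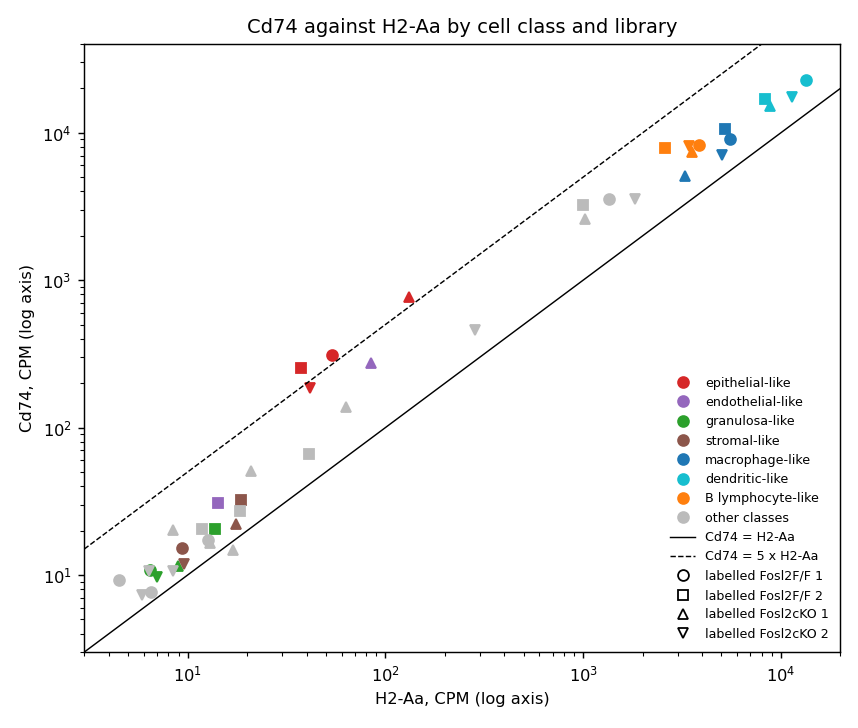
Cd74 against H2-Aa by cell class and library (CPM, log axes), with lines for equal levels and for Cd74 at 5 times H2-Aa, drawn where a class held at least 20 H2-Aa UMIs in the library. The 4 epithelial-like points lie near the upper line, with ratios of 4.45 to 6.75, and macrophage-like and dendritic-like points closer to the lower one, with ratios of 1.41 to 2.04.

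Markers of immune cells were looked up in the epithelial-like cells. The 9 macrophage markers summed to 32.1, 38.6, 44.9 and 35.2 CPM there, against 9399 to 15028 CPM in macrophage-like cells and 86.5 to 185 CPM in stromal-like cells, where Cd74 was at 11.9 to 32.5 CPM. The 11 dendritic markers summed to 72.3 to 87.5 CPM, against 1804 to 2350 CPM in dendritic-like cells, and 4 to 6 of the 11 were at 0 in a library. Xcr1 and Clec9a, which led only the smaller dendritic-like cluster, were at 0 in all 4 libraries, and the other 9 were each seen in at least 1. The 8 B lymphocyte markers summed to 3.71 to 13.9 CPM. The part of other cells in the Cd74 of epithelial-like cells was not tested beyond these values.

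The first library labelled Fosl2cKO stood apart in MHC genes of several classes outside the granulosa cells. In epithelial-like cells H2-K1 had 747 and 658 CPM in Fosl2F/F libraries and 2083 and 718 CPM in those labelled Fosl2cKO, and B2m had 266, 175, 745 and 226 CPM. Genes were kept for this comparison at a mean of at least 20 CPM in the other 3 libraries, a filter chosen after the values were seen. Of the members, 3 of 3 of class I and 4 of 4 of class II were there over 1.5 times the highest of the other 3 libraries, as were 4 of 23 other genes of the pathway, against 0.784% of all genes at that level. Those pathway genes included Gbp2 (377, 370, 792 and 373 CPM), which interferon-gamma induces, and the nonclassical class I genes H2-T22 and H2-Q4. No other library met this rule for a member kept in epithelial-like, endothelial-like, lymphatic endothelial-like or stromal-like cells. Elsewhere the first library labelled Fosl2cKO met it in theca-like (H2-D1), luteal-like (H2-K1 and H2-D1), T-like (Cd74) and NK-like cells (Nlrc5). In pericyte or smooth muscle-like cells it did so for 0 of 6 members kept. For the share of all genes past the rule, genes were kept here at 20 CPM on average over all 4 libraries. The shares were 1.65% in theca-like, 2.74% in luteal-like, 3.62% in T-like, 5.77% in NK-like and 1.77% in pericyte or smooth muscle-like cells. In T-like cells 75.7% of the 74 Cd74 UMIs of this library came from 2 cells. The second library labelled Fosl2cKO met the rule in NK-like (H2-Eb1 and Cd74) and B lymphocyte-like cells (Ciita), and the second Fosl2F/F library in NK-like cells (Tap1). With genes kept on the mean of all 4 libraries, the shares of all genes for the former library were 6.16% and 6%. For the latter the share was 6.7%.

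In endothelial-like cells the same library led in class II. Cd74 was at 16.2 and 30.6 CPM in Fosl2F/F libraries and at 276 and 9.36 CPM in those labelled Fosl2cKO, and H2-Aa at 6.67, 14.3, 84.9 and 6.11 CPM. H2-Ab1 was at 12.4, 12.3, 70.8 and 4.48 CPM and H2-Eb1 at 9.53, 22.1, 69.6 and 7.74 CPM. None of these 4 reached 20 CPM on average in the other 3 libraries, so they were not counted. Of class I, 1 of 5 members met the rule (Tap1), against 0.973% of all genes. In the first library labelled Fosl2cKO 23 of 181 endothelial-like cells had at least 10 Cd74 UMIs and held 53.5% of its Cd74 UMIs, and the others gave 173 CPM, whereas no cell of the other 3 libraries had that many. Macrophage markers summed to 75.3, 72.7, 89 and 91.6 CPM in these cells, dendritic markers to 313, 343, 464 and 436 CPM and B lymphocyte markers to 1069, 1258, 982 and 1308 CPM, and their part in the result was not tested.

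Lymphatic endothelial-like cells had 978, 730, 2155 and 1061 CPM of H2-K1, and 3 of 5 class I members met the rule in the first library labelled Fosl2cKO, against 2.16% of all genes. Their class II genes were too low to be counted, with Cd74 at 8.55, 28.4, 50.6 and 5.8 CPM. In stromal-like cells H2-K1 stood at 142, 110, 283 and 100 CPM and H2-D1 at 80.4, 57.7, 178 and 53.9 CPM, with 2 of 3 class I members past the rule against 1.78% of all genes, while Cd74, at 15.3, 32.5, 22.2 and 11.9 CPM, was highest in a Fosl2F/F library. In granulosa-like cells 0 of 3 members met the rule, against 0.183% of all genes, and in macrophage-like and dendritic-like cells 0 of 10 did. In these 2 classes 1.12% and 2.25% of all genes did, among genes kept at 20 CPM on average over all 4 libraries. That library also held the largest share of immune cells (10.9%), and NK markers in its epithelial-like cells summed to 20.9 CPM against 0.63 to 2.41 CPM in the others. The part of these values in the result was not tested. Without the second library labelled Fosl2cKO, H2-D1 and Nlrc5 had log2 fold changes of 1.30 and 1.48 in stromal-like cells. Without the first, H2-D1 had a log2 fold change of -0.45.

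Conditions were compared on UMIs summed per class and library, 2 libraries against 2, in the 13 classes with at least 20 cells in every library. A call needed an adjusted p below 0.1 together with a change of more than 0.25 in either direction on the log2 scale, and 5 to 10 members per class passed the filter on low counts. Of 109 tests of members, 0 were called by edgeR's quasi-likelihood test, and the lowest adjusted p was 0.38, for Nlrc5 in luteal-like cells. At an unadjusted p under 0.05 there were 17 (15.6%), 12 of them with a fold change above 0, against 5.53% of all 127492 gene tests. These tests are not independent, since members share the same cells and classes the same libraries. Most of the 12 were in epithelial-like, endothelial-like and lymphatic endothelial-like cells. There the first library labelled Fosl2cKO was the highest for each of them. DESeq2 called 1 member test, Nlrc5 in luteal-like cells, and gave 11 at an unadjusted p under 0.05. Few genes of any kind were called. The share was 0.516% of genes in T-like, 0.321% in macrophage-like, 0.266% in endothelial-like, 0.146% in lymphatic endothelial-like, 0.121% in stromal-like, 0.116% in epithelial-like, 0.0337% in theca-like, 0.0156% in luteal-like, 0.00807% in pericyte or smooth muscle-like and 0.00579% in granulosa-like cells, and 0% in B lymphocyte-like, NK-like and dendritic-like cells. For a single gene, an exact permutation test of 2 against 2 libraries cannot give a two-sided p under 0.333.

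Macrophage-like cells showed lower class II values in the libraries labelled Fosl2cKO, without passing the threshold. Cd74 was at 9026 and 10541 CPM in Fosl2F/F libraries and at 5110 and 7096 CPM in those labelled Fosl2cKO, and the groups did not overlap (log2 fold change -0.70, SE 0.22, edgeR's adjusted p = 0.52). H2-Eb1 was at 4722, 5122, 2785 and 4193 CPM (log2 fold change -0.52, SE 0.24), H2-Ab1 at 3188, 2743, 1768 and 2582 CPM and H2-Aa at 5559, 5199, 3260 and 5016 CPM. In all, 6 of 10 members (these 4, Nlrc5 and Tap1) were lower in both libraries labelled Fosl2cKO than in both Fosl2F/F libraries, against 15.6% of all genes with at least 20 CPM, and members that share a class share the same cells. Ciita overlapped between the groups, as did B2m, H2-K1 and H2-D1. Of the 3 macrophage-like clusters, those led by Atp6v0d2 and by Mmp13 each kept the order, with Cd74 at 8045, 9000, 3943 and 5300 CPM and at 12727, 10042, 7416 and 6756 CPM, while in the other the groups overlapped (7880, 12098, 6966 and 11697 CPM). The first Fosl2F/F library held only 56 macrophage-like cells. The unnamed cluster led by Arg1 and Spp1, which scored highest on the macrophage list, was not part of this class. It held 69, 9, 10 and 13 cells in the same order of libraries. Its Cd74 was at 5884, 13373, 6110 and 6828 CPM and its H2-Aa at 3085, 7335, 3229 and 4546 CPM. The groups overlapped for both genes. Values of the macrophage-like class with this cluster added were not computed.

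Dendritic-like cells had a smaller difference in Cd74 (log2 fold change -0.39, SE 0.17, edgeR's adjusted p = 0.83), and their groups overlapped for all class II members. Without the second Fosl2F/F library Cd74 had a log2 fold change of -0.63 in dendritic-like cells, so its size rests on which Fosl2F/F library is used. In endothelial-like cells Cd74 had a log2 fold change of 2.50 (SE 0.84, edgeR's adjusted p = 0.52). Without the second library labelled Fosl2cKO the 4 class II genes other than Ciita had 1.97 to 3.44 there. Without the first, Cd74 had -1.38, since the first alone was high. These 4 were called higher without the filter on low counts (log2 fold changes of 1.16 to 2.52). Pericyte or smooth muscle-like cells had 17.4, 65.9, 14.8 and 10.7 CPM of Cd74, highest in the second Fosl2F/F library, and 62.2% of its Cd74 UMIs there came from 4 cells. There Cd74 had a log2 fold change of -1.75 (SE 0.52, edgeR's adjusted p = 0.90). Without the first library labelled Fosl2cKO the 4 class II genes other than Ciita had -1.77 to -2.16, and without the second Cd74 had -1.54. Without the filter on low counts H2-Aa, H2-Eb1 and Cd74 were called lower there (-1.23, -1.43 and -1.73). The share of all genes called per class in these settings is not given here. NK-like cells had 0, 240, 19.2 and 458 CPM of Cd74, and 96.1% of the UMIs of the last library came from 1 cell. Without the first library labelled Fosl2cKO the 4 class II genes had log2 fold changes of 2.05 to 8.05 in NK-like cells. Nlrc5 had 3.93 in lymphatic endothelial-like cells without the second Fosl2F/F library. It had 1.61 in pericyte or smooth muscle-like cells without the second library labelled Fosl2cKO.

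**Figure D4:**
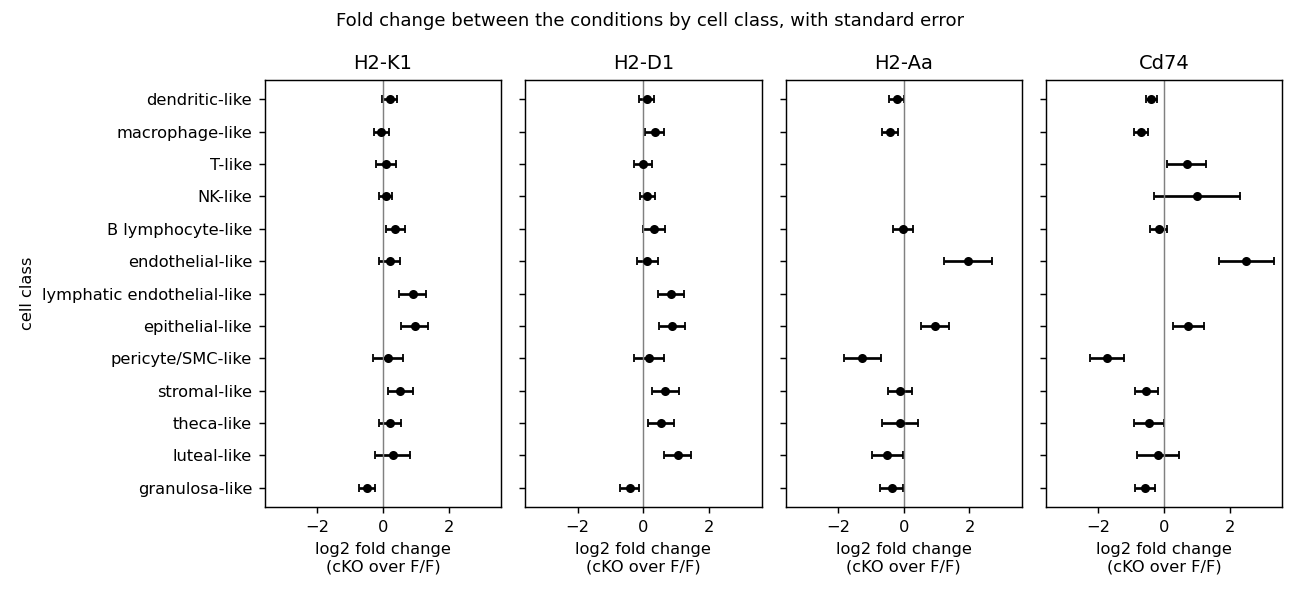
Log2 fold change of H2-K1, H2-D1, H2-Aa and Cd74 between libraries labelled Fosl2cKO and Fosl2F/F (horizontal axes) by cell class (vertical axis), with bars of 1 standard error and no point where a gene did not pass the filter on low counts. No point passed the threshold, and the farthest from 0 is Cd74 in endothelial-like cells (2.50, SE 0.84).

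Granulosa-like cells, to which Cre was directed, gave 0 calls among 10 members. B2m was at 146 and 99.9 CPM in Fosl2F/F libraries and at 104 and 109 CPM in those labelled Fosl2cKO (log2 fold change -0.24, SE 0.23, edgeR's adjusted p = 1.0), which overlap. H2-K1, at 203, 152, 152 and 108 CPM, had a log2 fold change of -0.49 (SE 0.24, edgeR's adjusted p = 1.0). In the 5 granulosa subclasses 0 of 45 member tests were called (10 at an unadjusted p under 0.05, against 5.98% of all gene tests there), and the lowest adjusted p was 0.41, for H2-K1 in mitotic-antral-like cells. The shares of all genes called there were 0.0152% in cumulus-like, 0.00827% in mitotic-antral-like, 0.00779% in mural-like, 0.00754% in atretic-like and 0.00685% in mitotic-like cells. Of the 10, 5 were in mitotic-antral-like cells, where 9.6% of all genes were at that p. All 10 had a fold change below 0, and the share of all genes below 0 at that p was not computed. The subclasses are parts of the same libraries, and the 10 include tests of Cd74 and H2-Ab1, which were low in these cells. H2-K1 was at 321, 182, 155 and 132 CPM in mitotic-antral-like cells (log2 fold change -0.87, SE 0.27). Tap1 was at 17.6, 10.9, 8.25 and 7.93 CPM and Cd74 at 11.5, 17.1, 7.91 and 8.19 CPM, on 89, 66, 46 and 32 Cd74 UMIs. All were lower without overlap in the libraries labelled Fosl2cKO, and the share of all genes lower in this way was not computed in the subclasses. H2-K1 and Tap1 were highest in the first Fosl2F/F library, and H2-D1, at 154, 57.3, 58.1 and 47.1 CPM, was high in that library alone.

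The effect of the condition in granulosa-like cells was set against that in 3 classes that should not carry Cre, as a difference within each library tested with limma. None of 29 differences for the members passed an adjusted p under 0.1, the lowest adjusted p was 1.0, and 1 had an unadjusted p under 0.05 (H2-D1 against macrophage-like cells, -0.73, where 4.65% of all genes did). Of all genes, 0% passed against stromal-like and against endothelial-like cells and 0.0109% against macrophage-like cells. For H2-K1 the difference was -0.85 against stromal-like, -0.68 against endothelial-like and -0.45 against macrophage-like cells on the log2 scale. Without the first library labelled Fosl2cKO these were -0.31, -0.42 and -0.62, and without the second -1.39, -0.93 and -0.29. Without the second, 6 of 10 members against stromal-like and 6 of 9 against endothelial-like cells had an unadjusted p under 0.05, against 8.12% and 3.4% of all genes, and still none was called.

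Other genes of antigen presentation were taken from a list of 52 genes, of which 49 were among the features. They covered further class I chains, peptide loading, the immunoproteasome, class II loading, the promoter complex, interferon-gamma signalling and costimulation. Of 15 to 44 list genes tested per class, 2 were called higher in stromal-like cells (Rfxap and Socs1), 1 in endothelial-like cells (Rfxap) and 1 in T-like cells (Socs1), and 0 were called lower in any of the 13 classes. In the granulosa subclasses 1 was called higher, Socs1 in cumulus-like cells (log2 fold change 2.26, SE 0.30, edgeR's adjusted p = 0.097). The median log2 fold change of the list was 0.33 in epithelial-like and 0.42 in lymphatic endothelial-like cells, against -0.01 over all genes in both, and between -0.07 and 0.19 in the other classes. The first library labelled Fosl2cKO was over 1.5 times the highest of the others for 4 of 23 list genes kept in epithelial-like and 7 of 28 in lymphatic endothelial-like cells, and each other library for 0 or 1.

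Rfxap, a subunit of the RFX complex that binds class II promoters, had higher values in the libraries labelled Fosl2cKO in all 13 classes tested. In granulosa-like cells it had 6.68 and 8.42 CPM in Fosl2F/F libraries and 22 and 33.4 CPM in those labelled Fosl2cKO, from 324 to 1614 UMIs. The groups did not overlap, and the log2 fold change was 1.86 (SE 0.27, edgeR's adjusted p = 0.35). Endothelial-like cells had 8.58, 7.02, 28.6 and 35.4 CPM (log2 fold change 2.08, SE 0.36, edgeR's adjusted p = 0.023) and stromal-like cells 5.37, 7.48, 19.7 and 26.7 CPM (1.78, SE 0.31, edgeR's adjusted p = 0.06). Rfxap was not called in either class without the first (2.20 in endothelial-like and 1.61 in stromal-like cells) or without the second Fosl2F/F library (1.87 and 1.97). Both libraries labelled Fosl2cKO lay above both Fosl2F/F libraries in 13 of 13 classes, and the 9 classes with a fitted value ranged from 1.65 to 2.08. The other 4 did not pass the filter and rest on few UMIs, with 0, 0, 2 and 4 in B lymphocyte-like, 0, 0, 6 and 4 in NK-like, 0, 1, 19 and 11 in T-like and 2, 7, 19 and 4 in lymphatic endothelial-like cells. The classes share the same 4 libraries and are not independent, and 12.8% to 32.8% of the genes with at least 20 CPM, a level that Rfxap did not reach in the Fosl2F/F libraries, were higher without overlap in a class. These are shares within single classes. The share of all genes higher without overlap in all 13 classes was not computed, so the count of 13 has no matching share beside it. Rfx5, another subunit of the complex, was not called in any class.

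**Figure D5:**
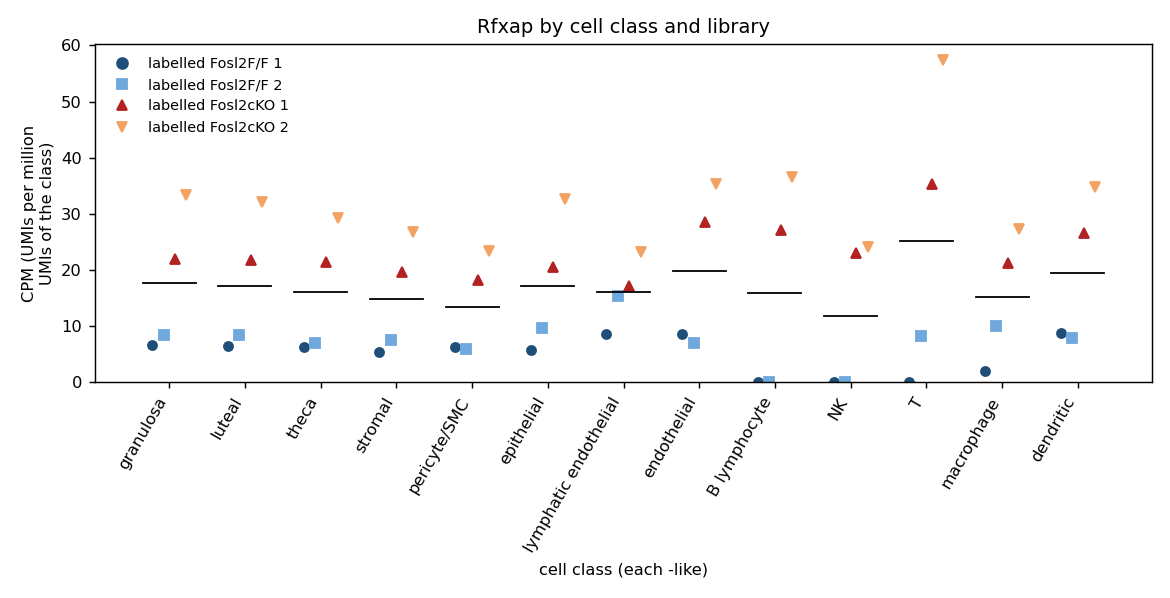
Rfxap by cell class and library (CPM, linear axis from 0), with 1 symbol per library and a line at the mean of the 4. In each of the 13 classes both libraries labelled Fosl2cKO lie above both Fosl2F/F libraries, as in granulosa-like cells with 22 and 33.4 CPM against 6.68 and 8.42 CPM.

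Socs1, which dampens interferon-gamma signalling, had higher values without overlap in 11 of 13 classes, all but B lymphocyte-like and lymphatic endothelial-like cells. In a single class 12.8% to 32.8% of the genes with at least 20 CPM were higher in this way. The share of all genes higher in as many classes was not computed. Some classes rest on few UMIs, with 0, 1, 11 and 8 in NK-like, 3, 4, 12 and 19 in dendritic-like and 0, 6, 46 and 22 in macrophage-like cells. In T-like cells it had 9.8, 16.5, 94.8 and 120 CPM (log2 fold change 3.01, SE 0.56, edgeR's adjusted p = 0.057), on 2 to 51 UMIs per library. Without the first Fosl2F/F library it was not called there (2.61), nor by DESeq2 (3.05). In stromal-like cells it had 11.1, 20.5, 112 and 45.5 CPM (2.26, SE 0.39, edgeR's adjusted p = 0.062). It was not called there without the first (1.93) or the second Fosl2F/F library (2.70), nor at a clustering resolution of 0.4 (2.26) or in cells over 2000 UMIs (2.20). In the same cells the log2 fold changes of Cd74, H2-Eb1, H2-Aa and H2-Ab1 were -0.54, -0.21, -0.11 and 0.03. Ciita had 0.07. The class I members Nlrc5, H2-D1, H2-K1, Tap1 and B2m had 0.75, 0.67, 0.53, 0.36 and 0.13. The first library labelled Fosl2cKO was the highest for each of these class I members. No member passed there, and a link to Socs1 was not tested.

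Genes outside the pathway list with the most similar pattern over the 16 classes were sought among 12521 genes with at least 20 CPM in a class, by Pearson's correlation of log2(CPM + 1) with the mean of the standardized members, as a description over classes of shared libraries. For B2m, H2-K1 and H2-D1 they were Vsir (0.94), Lfng (0.93), Tmsb4x (0.93), Arhgap25 (0.92) and 9930111J21Rik2 (0.92). Of the pathway list, Psmb8 (0.93), H2-Q6 (0.92), H2-Q7 (0.91) and Psmb9 (0.91) were close to these, Tap1 had 0.90 and Nlrc5 0.80. For H2-Aa, H2-Ab1, H2-Eb1 and Cd74 they were Ly86 (0.94), Pld4 (0.93), Gm36486 (0.91), Gm20513 (0.90), which lies on the strand opposite to H2-Eb1, and Tlr1 (0.89). Of the pathway list, H2-DMa (0.97), H2-DMb1 (0.94), Cd86 (0.91) and Ctss (0.90) were close to these or above. H2-DM loads peptides onto class II, the protease Ctss trims the invariant chain, and Cd86 is a costimulatory ligand. Ly86 was highest in macrophage-like cells at 329 CPM and at 0.33 CPM in granulosa-like cells, and Pld4 was highest in monocyte-like cells at 233 CPM.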

How the data were processed

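Ovarian cells of 2 Fosl2F/F libraries and 2 libraries labelled Fosl2cKO were captured on a 10x 3′ kit. Reads were aligned by the authors with Cell Ranger against GRCm38, and the deposited matrices hold whole UMI counts per gene and barcode. Their headers name version 7.1.0 and the study's methods an earlier one, and whether intronic reads were counted was not stated. Whether CellBender, named in the study's methods, had been applied to them was not stated. Barcodes entered the analysis with no fewer than 500 genes and more than 1000 UMIs, of which mitochondrial genes took below 10% and hemoglobin genes below 0.1%. Doublets were removed with Scrublet (scanpy 1.11.5) at 0.8% per 1000 cells. Libraries were integrated with Seurat 5.3.0 (3000 features, 30 dimensions, resolution 0.8), and 0 columns of other samples were left out. Libraries held 120327227 to 148836173 UMIs. Shares and levels from few UMIs carry counting error.

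UMIs were summed per class and library and tested with edgeR 4.0.16 (quasi-likelihood), with DESeq2 1.42.0 as an alternative. Differences between classes were tested with limma 3.58.1. The scripts were tested on simulated data. The members and lists were chosen with earlier results of these data known. Beside the members, the text names list genes that were called and the 5 genes outside the list most like each pattern. Gbp2, Psmb8, Psmb9, Rfx5, H2-DMa, H2-DMb1, Cd86 and Ctss were named after their values were seen. A few items are not reported here.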

Additional observations from a re-analysis of the deposited data

Results flagged for a closer look

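In several pairs of cell classes both libraries labelled Fosl2cKO lay on opposite sides of both Fosl2F/F libraries for 1 gene. None of these members was called in its own class, and the difference between the classes was not tested for these pairs. Over the classes 12.8% to 32.8% of genes with at least 20 CPM were higher without overlap and 7.32% to 19.7% lower. H2-K1 had a log2 fold change of -0.49 in granulosa-like cells, where the second Fosl2F/F and the first library labelled Fosl2cKO were both at 152 CPM and apart only in further digits, against 0.90 in lymphatic endothelial-like, 0.38 in B lymphocyte-like, 0.20 in dendritic-like and 0.08 in NK-like cells. Nlrc5 had -0.48 in macrophage-like and 0.61 in T-like cells, and Tap1 had -0.26 in macrophage-like and 0.33 in dendritic-like cells. B2m had -0.19 in NK-like and 0.28 in B lymphocyte-like cells. H2-Aa had -0.41 in macrophage-like cells, while both libraries labelled Fosl2cKO were above both others in T-like cells (4, 1, 34 and 5 UMIs, 52.9% of the 34 from 1 cell) and NK-like cells (0, 0, 1 and 47 UMIs, 97.9% of the 47 from 1 cell). H2-Eb1 had -1.45 in pericyte or smooth muscle-like and -0.52 in macrophage-like cells, and was above without overlap in lymphatic endothelial-like cells, on 3, 6, 43 and 3 UMIs.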

How the results depend on the processing

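Levels and UMI shares of the members kept their values within the spread between libraries under all 270 alternative values computed (clustering resolutions of 0.4 and 1.2, the antigen presentation genes kept among the features, doublets kept and only cells over 2000 UMIs). The shares of cells with a UMI depended on depth, and without thinning Cd74 was found in 67.7% of epithelial-like and 13.5% of granulosa-like cells and B2m in 64.9% of granulosa-like cells. Against 0 member tests called, there were 1 with DESeq2, 1 at resolution 0.4 (H2-D1 in luteal-like cells), 12 without a filter on low counts and 0 to 8 with 1 library left out, where a lone library was assumed to vary like the others. Against 134 genes called over the 13 classes, there were 52 with adjusted p below 0.05 and no minimum fold, 884 with DESeq2, 1254 at resolution 0.4, 2843 without the filter and 288 to 1423 with 1 library left out. The cause was not tested.

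Same-numbered libraries did not deviate together (correlation -0.15 over 17266 genes in granulosa-like cells), and the labels give only the number. With so few libraries this correlation cannot exclude a shared batch or day. With the number as a replicate block 1 member test was called (Cd74 in macrophage-like cells, log2 fold change -0.71) and 386 genes. With the pairing crossed, chosen after seeing the data, 4 member tests (the class II genes other than Ciita in endothelial-like cells) and 826 genes were called.

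Of 529 log2 fold changes of single members and list genes under the alternatives, 480 kept their direction and their side of the threshold. With 1 library left out, the sign turned without the first library labelled Fosl2cKO (lowest value) while leaving out the second gave the highest. The values ran from -0.05 to 1.75 for B2m, -0.06 to 1.56 for H2-K1 and -0.70 to 1.43 for Cd74 in epithelial-like cells, from -1.38 to 3.44 for Cd74 and -0.89 to 2.83 for H2-Aa in endothelial-like cells and from -0.43 to 1.10 for H2-K1 and -0.45 to 1.30 for H2-D1 in stromal-like cells. In granulosa-like cells B2m ran from -0.52 to 0.12 and H2-D1 from -0.75 to 0.03, without the second and the first Fosl2F/F library. B lymphocyte-like cells over 2000 UMIs and Nlrc5 in luteal-like cells at resolution 0.4 gave no value, and the granulosa subclasses were not recomputed under the alternatives. Classes of under 60 cells in a library and members with few UMIs, such as Ciita, limit what 2 libraries against 2 can show.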
